A study of Mus musculus with 24 samples.

Results

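The comparison set MLLT1 knockout against DOT1L knockout in mouse acute myeloid leukaemia cells. It used 9 of the 24 libraries of the series: 3 of MLLT1 guide 1, 3 of MLLT1 guide 2 and 3 of DOT1L, taken by the sample titles and the matching columns of the raw count table (where MLLT1 is written ENL, its other name). All groups were a mouse leukaemia line that carries the MLL-AF9 fusion oncogene and expresses Cas9. Cells were infected with lentiviral guide RNAs (multiplicity of infection 0.3), kept in 2 ug/ml puromycin for 72 hours from 48 hours after transduction, and harvested for RNA on day 9. MLLT1 was targeted by 2 guides, while the labels name a single guide for DOT1L, so an effect particular to that guide and an effect of DOT1L loss cannot be told apart. The 3 libraries of the non-targeting control group are given only as background, and the labels do not say whether replicates were separate cultures. The p-values therefore reflect only how far libraries spread, which may be technical. For the tests gene by gene that spread was estimated over all 24 libraries of the series.

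DOT1L is the methyltransferase that places methyl groups on lysine 79 of histone H3, a mark of transcribed genes. MLLT1 (ENL) is a reader of acetylated histones that binds DOT1L and is also found in the super elongation complex, which acts on paused RNA polymerase II. MLL-AF9 joins the start of MLL to AF9, a close relative of ENL, and leukaemias with this fusion are known for high expression of HOXA genes and MEIS1 and for an arrest of myeloid maturation. The comparison asks where loss of the reader and loss of the enzyme leave different mRNA levels.

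Library totals were 3045434 to 7415397 counts for MLLT1, 3065608 to 6448131 for DOT1L and 2403044 to 3127008 for the control. The 10 most abundant genes took 12% to 13.1% of the counts in DOT1L libraries against 4.6% to 5.28% in MLLT1 libraries, and the scaling factors (TMM, which correct for such shifts) were 0.8627 to 0.8799 against 0.9784 to 1.053. Genes of the mitochondrial genome, its rRNA and tRNA genes included, took 1.49% to 1.76% of counts in DOT1L libraries and 1.39% to 1.91% in MLLT1 libraries. MLLT1 guide 1 replicate 1 stood apart most, with a correlation of 0.9531 with the rest of its group. The myeloid label was checked with 8 markers, all of which were expressed in the 9 libraries: Ptprc (CD45) ran from 78.8 to 112 CPM over them, Spi1 from 146 to 348 CPM and Kit from 39.3 to 89.8 CPM. CPM are counts per 1000000 counts of a library after TMM scaling, and they are not corrected for gene length.

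The targeted genes were examined first. Dot1l, the gene of the methyltransferase, stood at 49.05, 41.6 and 43.3 CPM in the 3 libraries labelled DOT1L knockout, at 84.4, 83.4 and 71.8 CPM in those of MLLT1 guide 1 and at 74.04, 71.5 and 78.1 CPM in those of guide 2. The DOT1L libraries lay below all others, by 0.79 on the log2 scale (SE 0.11, adjusted p = 9.9e-06), and the mRNA was not lost. Mllt1 stood at 69.3, 46.1 and 36.7 CPM with guide 1, 43.3, 48.5 and 34.95 CPM with guide 2, 40.1, 40.5 and 43.8 CPM in DOT1L libraries and 41.2, 27.8 and 21.8 CPM in the control. The groups overlapped (log2 difference 0.15, SE 0.21, adjusted p = 0.7), so the mRNA gave no check of the label MLLT1. Cutting by Cas9 changes the coding sequence and can leave the mRNA level as it was.

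Of 10578 genes tested, 898 (8.49%) were higher in MLLT1 knockout and 1176 (11.1%) were higher in DOT1L knockout, 19.6% together, at an adjusted p under 0.05 (quasi-likelihood test of edgeR, Benjamini-Hochberg adjustment, used for every adjusted p below unless another test is named). Of these, 409 and 597 differed by at least 2-fold. Counts of called list members below are to be read against the shares of 8.49% and 11.1%. Log2 fold changes are MLLT1 minus DOT1L, so a positive value means more mRNA after MLLT1 knockout, and the median over all genes was 0.01. Without DOT1L replicate 3, 570 genes were higher and 886 lower, without DOT1L replicate 1, 742 and 1003, and without MLLT1 guide 1 replicate 1, 911 and 1190. DOT1L replicate 1 was the highest of the 3 DOT1L libraries in 33.9% of all genes, in 46.2% of the 130 called genes at least 4-fold higher in MLLT1 knockout and in 15.6% of the 225 at least 4-fold lower. The median log2 ratio of replicate 1 to the mean of the other DOT1L libraries, with 1 CPM added, was -0.02, 0.02 and -0.22 in the same order. The 6 MLLT1 libraries did not overlap with the 3 DOT1L libraries in 22.8% of genes, with MLLT1 higher in 9.78% and DOT1L higher in 13%.

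**Figure D1:**
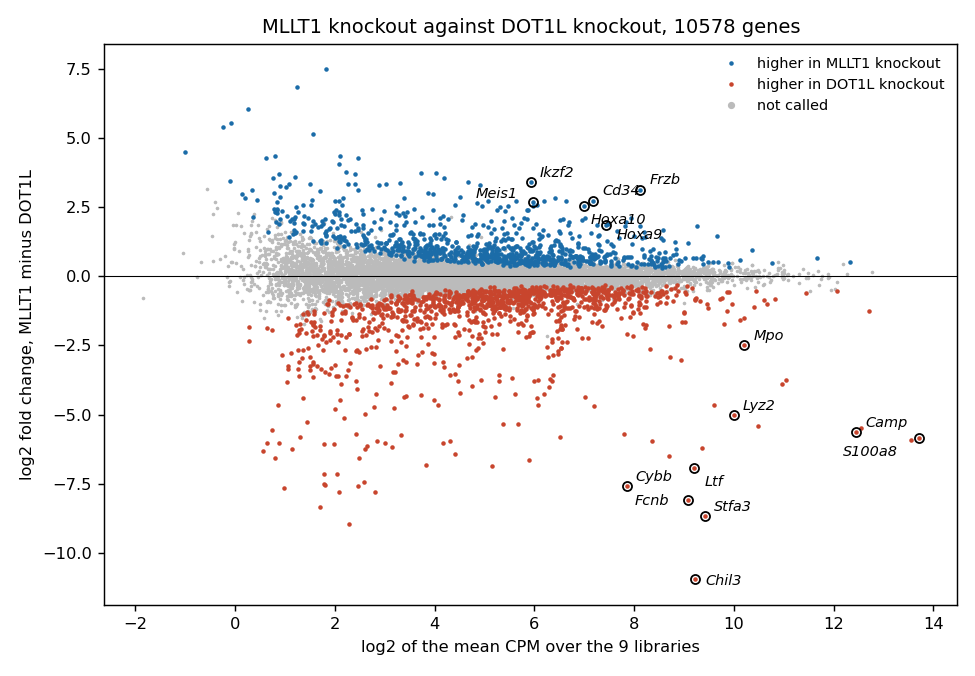
Log2 fold change (MLLT1 minus DOT1L) against the log2 of the mean CPM over the 9 libraries, 1 point per tested gene, with called genes in blue (higher in MLLT1 knockout) and red (higher in DOT1L knockout). The lower right holds abundant mRNAs of granule and S100 genes, down to -10.96 for Chil3, while Frzb, Cd34, Hoxa10 and Meis1 are among those marked on the upper side.

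Each MLLT1 guide alone gave a similar number of calls. Guide 1 against DOT1L gave 721 genes higher (6.82%) and 926 lower (8.75%), 15.6% of genes in all, and guide 2 gave 687 (6.49%) and 895 (8.46%), 15% in all. Of the 898 genes higher with both guides averaged, 546 were called by both guides, 145 by guide 1 alone, 114 by guide 2 alone and 93 by neither on its own. Among the 1176 lower genes these counts were 754, 158, 130 and 134. Each guide kept the direction in every one of the 2074 genes. That is no separate check of the guides, since these genes were selected on the mean of both guides. Each guide was also set against the same DOT1L libraries, so calls shared by both guides are not independent. Between the guides 0 genes were called by edgeR and 0 by DESeq2, with 222 at an unadjusted p under 0.05.

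Many mRNAs of neutrophil granules and of the neutrophil cytoplasm were abundant after DOT1L knockout and low after MLLT1 knockout. S100a8, a subunit of calprotectin, stood at 37308, 41709 and 37222 CPM in the DOT1L libraries, 525, 756 and 685 CPM with MLLT1 guide 1 and 645, 724 and 678 CPM with guide 2. Its partner S100a9 stood at 31858, 35324 and 37219 CPM, 520.2, 542 and 627 CPM and 548, 641 and 573 CPM in the same order. Every MLLT1 library lay far below every DOT1L library, at log2 fold changes of -5.86 (SE 0.28, adjusted p = 1.3e-13) and -5.92 (SE 0.23, adjusted p = 3.3e-15). The control libraries were lower again, at 97.7, 53.2 and 61.4 CPM for S100a8, and MLLT1 knockout exceeded them by 3.24 on the log2 scale (SE 0.32, adjusted p = 7.9e-07), against 9.10 for DOT1L knockout. Together the listed S100 genes took 6.62% ± 0.311 (SD, n = 3) of all counts after DOT1L knockout, 0.233% ± 0.0285 (SD, n = 6) after MLLT1 knockout and 0.134% ± 0.0232 (SD, n = 3) in the control. Of 7 S100 genes tested, 4 were lower and 1 higher in MLLT1 knockout, the others called lower being S100a11 (-1.49) and S100a1 (-1.33). The call of S100a10 as higher was lost without DOT1L replicate 1 or 3.

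Secondary granule genes, made at the myelocyte stage, were lower in 17 of 20 tested members after MLLT1 knockout and higher in 0, with a median of -4.25. Camp, the cathelicidin antimicrobial peptide, was measured at 13619, 18303 and 16665 CPM in DOT1L libraries, 199, 392 and 379 CPM with guide 1 and 294, 326 and 355 CPM with guide 2. The lowest DOT1L library exceeded the highest MLLT1 library many times over (log2 -5.64, SE 0.22, adjusted p = 4.3e-15). Ltf, or lactoferrin, was at 1668, 1695 and 1831 CPM in DOT1L libraries and from 10.2 to 20.5 CPM in the 6 MLLT1 libraries, with 0.824, 0.938 and 0.389 CPM in the control. For both genes MLLT1 knockout stood above the control, by 2.38 (adjusted p = 2.3e-06) and 4.21 (adjusted p = 7.0e-04) on the log2 scale, while DOT1L knockout stood above it by 8.02 and 11.15. Fcnb, ficolin B, ranged from 2.50 to 9.88 CPM in MLLT1 libraries against 1414, 1722 and 1727 CPM in DOT1L libraries. Lcn2 (lipocalin 2), Ngp (neutrophilic granule protein) and Cd177 were likewise lower, at log2 fold changes of -4.67, -3.75 and -4.71. As a share of all counts the list took 2.96% ± 0.281 (SD, n = 3) after DOT1L knockout, 0.181% ± 0.0226 (SD, n = 6) after MLLT1 knockout and 0.0783% ± 0.0043 (SD, n = 3) in the control. Against the control, 11 of the 20 tested members were higher after MLLT1 knockout and 0 lower, with 0.974% and 1.61% over all genes.

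Chil3, which encodes the chitinase-like protein Ym1, had the most negative fold change of the genes named here. It held 2157, 1702 and 1492 CPM in the DOT1L libraries and 0.336, 0 and 1.23 CPM and 4.21, 1.05 and 1.24 CPM with the MLLT1 guides, with 0, 0 and 0.389 CPM in the control (log2 -10.96, SE 0.53, adjusted p = 2.1e-13). Counts of Chil3, of the Stfa genes and of Lyz2 are uncertain to the extent that reads were shared with near-identical copies, since the treatment of such reads is not given in the sources used here.

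Late neutrophil genes were lower after MLLT1 knockout in 19 of 24 tested members and higher in 3, with a median of -3.54. Stfa3, a stefin-type cysteine protease inhibitor, stood at 1932, 2064 and 2142 CPM in DOT1L libraries, 4.04, 2.64 and 6.47 CPM with guide 1 and 6.92, 5.93 and 4.96 CPM with guide 2 (log2 -8.69, SE 0.30, adjusted p = 4.4e-16). Wfdc21, a small secreted WAP-domain protein, stood at 1706, 2059 and 2012 CPM, 23.2, 23.6 and 21.3 CPM and 27.99, 34.4 and 24.04 CPM in the same order, and at 2.89, 0.626 and 1.94 CPM in the control. For both genes the 6 MLLT1 libraries lay far below the 3 DOT1L libraries. Stfa2 and Stfa2l1 were lower, at log2 fold changes of -6.49 and -5.81, as were Mmp9 (gelatinase B) at -4.35 and Retnlg at -6.42. Among the members higher after MLLT1 knockout were Clec4d (1.08) and Wfdc17 (2.98). The list took 2.47% ± 0.173 (SD, n = 3) of counts after DOT1L knockout, 0.158% ± 0.0123 (SD, n = 6) after MLLT1 knockout and 0.144% ± 0.00238 (SD, n = 3) in the control. Against the control, 7 of the 24 tested members were higher after MLLT1 knockout and 2 lower, with 0.974% and 1.61% over all genes.

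Primary granule genes, made at the promyelocyte stage, differed less, with 6 of 11 tested members lower, 1 higher and a median of -0.56. Mpo, or myeloperoxidase, stood at 2768, 2519.6 and 2549 CPM in DOT1L libraries, 473, 480.4 and 422 CPM with guide 1 and 359, 613 and 442 CPM with guide 2 (log2 -2.49, SE 0.15, adjusted p = 1.1e-11). Elane, the gene of neutrophil elastase, was at 1938, 1961 and 2103 CPM against 539 to 808 CPM over the MLLT1 libraries (-1.58), and Prtn3, proteinase 3, was at 1691, 1608 and 1669 CPM against 445 to 644 CPM (-1.71). Prtn3 lay on opposite sides of the control, -0.58 for MLLT1 knockout (adjusted p = 0.033) and 1.13 for DOT1L knockout (adjusted p = 3.7e-05), with the control at 699, 839 and 729 CPM. Lyz2, lysozyme M, was lower, at a log2 fold change of -5.03 (SE 0.15). Ctsg, cathepsin G, overlapped between the groups at 2428 to 3156 CPM for MLLT1 and 2805, 2273 and 1972 CPM for DOT1L (adjusted p = 0.24). The list took 1.52% ± 0.0183 (SD, n = 3) of counts after DOT1L knockout, 1.03% ± 0.128 (SD, n = 6) after MLLT1 knockout and 1.41% ± 0.147 (SD, n = 3) in the control.

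The shares of counts were tested for 6 lists over the 9 libraries with a two-sided exact permutation test of the 84 splits. These are 6 of the 42 lists, which were chosen with earlier results of these data known, so the p-values are descriptive. The S100, secondary granule, late neutrophil and primary granule lists and the cytosolic ribosomal protein list did not overlap between MLLT1 and DOT1L libraries, each with p = 0.0238 in that exact permutation test (adjusted 0.0286), the smallest it can give. Ribosomal protein genes took 4.23% ± 0.13 (SD, n = 6) after MLLT1 knockout and 3.39% ± 0.0911 (SD, n = 3) after DOT1L knockout, and 0 of 34 passed the test gene by gene after TMM scaling. Shares of 1 library are parts of a whole, so a larger share of some lists lowers the others. The ribosomal share was not tested apart from this. The protein-coding genes of the mitochondrial genome took 1.32% ± 0.184 (SD, n = 6) and 1.4% ± 0.183 (SD, n = 3), which overlapped (p = 0.524, exact permutation test), and 0 of 11 passed gene by gene (2 without MLLT1 guide 1 replicate 1 and 1 without replicate 3 of that guide). At an unadjusted p under 0.05 the ribosomal and mitochondrial lists held 1 and 3 genes.

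**Figure D2:**
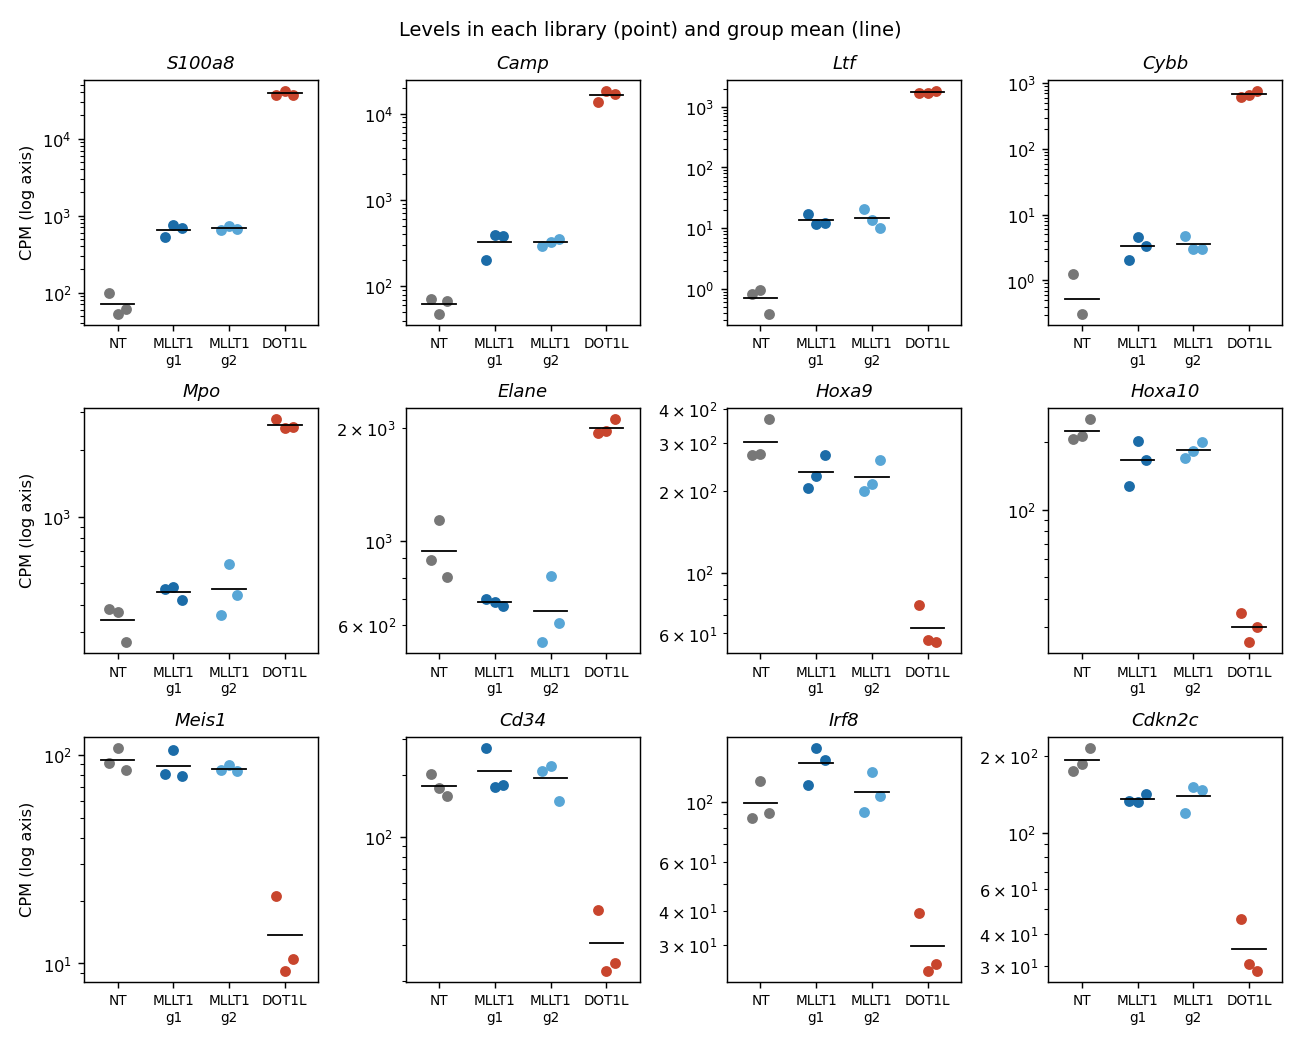
CPM (log axis) of 12 genes in each library, with the group mean as a line, in the non-targeting control (NT), MLLT1 guides 1 and 2 (g1, g2) and DOT1L knockout. Granule and phagocyte genes are highest after DOT1L knockout, and Hoxa9, Hoxa10, Meis1, Cd34, Irf8 and Cdkn2c are lowest there, while both MLLT1 guides share a range. The control library in which Cybb was listed at 0 is not drawn.

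Most genes of the NADPH oxidase, the source of the phagocyte's oxidative burst, were also lower after MLLT1 knockout than after DOT1L knockout. Cybb, the catalytic subunit of the NADPH oxidase, stood at 618, 671 and 763 CPM in the DOT1L libraries, 2.02, 4.58 and 3.39 CPM with guide 1 and 4.82, 3.03 and 2.97 CPM with guide 2 (log2 -7.59, SE 0.25, adjusted p = 2.3e-16). Its control libraries stood at 1.24, 0.313 and 0 CPM. MLLT1 knockout exceeded them by 2.78 on the log2 scale (SE 0.60, adjusted p = 0.011) and DOT1L knockout by 10.36. Of 6 oxidase genes, 5 were lower and 0 higher, and these genes of cytosolic subunits differed far less than Cybb: Ncf4 at -1.31, Ncf1 at -0.85 and the GTPase Rac2 at -0.98. Cyba, the membrane partner of Cybb, overlapped between groups (-0.21, adjusted p = 0.55).

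Chemoattractant receptors were lower in 8 of 11 tested members and higher in 0 (median -2.37). C5ar1, the complement C5a receptor, was at 28.2, 46.2 and 52.4 CPM in DOT1L libraries and at 0 to 0.744 CPM in MLLT1 libraries. Fpr2, a formyl peptide receptor, was listed at 0 in each of the 6 MLLT1 libraries and each control library and stood at 13.005, 8.18 and 8.02 CPM after DOT1L knockout, at least 87.6-fold lower in MLLT1 knockout when 3 counts are taken as the floor for the whole group. Ccr1 and S1pr4 were lower, at log2 fold changes of -2.51 and -1.49. The list of Fc and paired immunoglobulin-like receptors, which also holds C-type lectins, was lower in 13 of 19 members and higher in 0 (median -1.12). Among the lower members were Pilra at 3.03 to 9.88 CPM against 100.3, 163 and 137 CPM (-4.27), Pilrb2 (-3.57) and the C-type lectins Clec5a (-4.22) and Clec4a2 (-3.73). The Pilr genes are close copies of one another, so their separate counts are uncertain.

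Toll-like receptors and adaptors were lower in 5 of 17 members (29.4%, against 11.1% over all genes) and higher in 0. Among them were Tlr2 at -1.48, the LPS co-receptor Cd14 at -1.32, the adaptor Myd88 at -1.05 and Irak3 at -0.82. The count of lower members was 2 without DOT1L replicate 2 and 3 without replicate 3. Cd14 was not called without replicate 2 (adjusted p = 0.102), nor Irak3 without replicate 2 or 3 (adjusted p = 0.064 and 0.0822). Of 22 cytokine and growth factor receptors, 7 were lower (31.8%) and 4 higher (18.2%). The decoy receptor Il1r2 stood at 0 to 1.24 CPM in MLLT1 libraries and 52.02, 60.8 and 44.4 CPM in DOT1L libraries (-6.04), and the GM-CSF receptor Csf2ra was lower, at -2.4. Csf3r, the G-CSF receptor, was lower, at -1.59, and Il18rap and Tnfrsf1b were lower, at -1.30 and -1.23. Chemokine and cytokine genes were lower in 4 of 12 (33.3%) and higher in 1 (8.33%, near the 8.49% over all genes). The lower genes were Il1rn, the interleukin 1 antagonist (-3.76), Ccl6 (-3.67), osteopontin Spp1 (-2.71) and Ccl9 (-1.36). The higher gene, Osm (1.34), was not called without DOT1L replicate 3. Ccl9 was also below the control after MLLT1 knockout (-1.01, adjusted p = 7.0e-04), while DOT1L knockout stood at 0.35 against the control (adjusted p = 0.2).

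Monocyte and macrophage genes were lower in 7 of 19 members (36.8%) and higher in 2 (10.5%), with a median of -0.34. Over all genes 11.1% were lower and 8.49% higher, so the share of higher members was near that of all genes. F13a1, coagulation factor XIII, stood at 11.8, 10.3 and 21.6 CPM with guide 1, 15.05, 11.2 and 22.6 CPM with guide 2 and 87.3, 101 and 90.7 CPM after DOT1L knockout, with 28.03, 25.6 and 38.1 CPM in the control. Every MLLT1 library was below every control library and every DOT1L library above. The C-type lectin Mgl2 was lower, at -2.001. Adgre1, the gene of the F4/80 antigen, was higher in MLLT1 than in DOT1L knockout, at 90.2 to 136 CPM against 31.6, 40.9 and 44.9 CPM (1.58, SE 0.18, adjusted p = 3.4e-07). Its control libraries stood above both, at 159, 241 and 259 CPM. Against them MLLT1 knockout stood at -0.90 (adjusted p = 0.0018) and DOT1L knockout at -2.48. Csf1r overlapped between the groups (-0.94, adjusted p = 0.15). In bulk RNA, more cells of a maturing type and more mRNA per cell cannot be told apart.

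Myeloid transcription factors were lower in 8 of 21 members (38.1%, against 11.1% over all genes) and higher in 2 (9.52%, near the 8.49% over all genes). Bcl6, a repressor, was at 0 to 0.301 CPM in MLLT1 libraries and 7.06, 11.4 and 11.9 CPM in DOT1L libraries (-6.07). Cebpd ran from 90.5 to 223 CPM against 454, 657 and 609 CPM (-1.85), and Klf2 was lower, at -2.34. Spi1, the gene of PU.1, was lower, at -0.82 (adjusted p = 0.0026). Cebpa and Cebpe, the C/EBP factors of granulocyte fate and of secondary granules, did not pass (-0.24, adjusted p = 0.47, and -0.51, adjusted p = 0.085). Irf8, a factor of monocyte and dendritic fate, was higher after MLLT1 knockout, at 115, 157 and 142 CPM with guide 1 and 91.5, 129 and 104.6 CPM with guide 2 against 39.4, 24.2 and 25.5 CPM (2.05, SE 0.24, adjusted p = 8.1e-07). Without DOT1L replicate 3, 1 factor and not 2 was called higher.

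Hoxa genes and other known targets of MLL fusions stood on the other side. All 6 tested Hoxa genes, of 11 listed, were higher after MLLT1 knockout, with a median of 2.38, and 20 of 30 MLL fusion targets were higher and 3 lower (median 1.09). Hoxa9 stood at 204, 226 and 271 CPM with guide 1, 199.9, 212 and 259 CPM with guide 2, 76.2, 56.9 and 55.8 CPM after DOT1L knockout and 271, 272 and 365 CPM in the control. Hoxa10 stood at 128, 203 and 167 CPM, 170.1, 183 and 202 CPM, 34.6, 25.6 and 29.8 CPM and 207, 213 and 253 CPM in the same order. Neither gene's MLLT1 and DOT1L libraries overlapped, with log2 fold changes of 1.87 (SE 0.17, adjusted p = 1.6e-08) and 2.55 (SE 0.22, adjusted p = 5.1e-09). Against the control, MLLT1 knockout stood at -0.40 for Hoxa9 (SE 0.15, adjusted p = 0.17) and -0.35 for Hoxa10 (SE 0.18, adjusted p = 0.36), and DOT1L knockout at -2.27 and -2.90. Hoxa5, Hoxa11 and Hoxa7 were higher by 2.36, 2.4 and 1.69. Hoxa2 rested on 2 counts over the DOT1L libraries and was 13.9 times as high in MLLT1 knockout.

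Meis1, the partner of the HOXA proteins, ran at 81.04, 106 and 79.5 CPM with guide 1, 84.6, 89.8 and 83.5 CPM with guide 2 and 21.2, 9.24 and 10.5 CPM after DOT1L knockout, with 91.5, 108 and 85.2 CPM in the control. DOT1L replicate 1 was the highest of its group and still below every MLLT1 library (2.71, SE 0.20, adjusted p = 6.0e-10). Eya1, a transcriptional coactivator, was higher by 2.53, the survival factor Bcl2 by 2.01, and Mef2c by 1.13. Jmjd1c, a demethylase-family gene, was higher by 1.25. The 3 fusion targets that were lower in MLLT1 knockout were Id2 (-2.23), Gfi1 (-0.61) and Cpeb2 (-0.97). Myb and Myc overlapped between the groups, at 0.19 (adjusted p = 0.49) and -0.47 (adjusted p = 0.7), and Myc spread from 8.41 to 145 CPM within the MLLT1 libraries.

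Stem and progenitor genes were higher in 12 of 21 members and lower in 2 (median 0.74). Cd34, a surface protein of progenitors, stood at 272, 175 and 180.2 CPM with guide 1, 209, 223 and 149.7 CPM with guide 2 and 44.2, 22.4 and 24.4 CPM after DOT1L knockout (2.74, SE 0.27, adjusted p = 4.2e-08). Ikzf2, the gene of Helios, stood at 45.7 to 113 CPM over the MLLT1 libraries and 15.6, 3.91 and 6.06 CPM in DOT1L libraries (3.40), and Cd93 was higher by 1.20. Kit did not pass (-0.10, adjusted p = 0.83). The count of lower members was 1 without DOT1L replicate 3, MLLT1 guide 1 replicate 3 or MLLT1 guide 2 replicate 2, and 4 without MLLT1 guide 2 replicate 1.

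Outside the lists described so far, Frzb, a secreted WNT antagonist, had the largest positive fold change of the called mRNAs averaging 100 CPM or more, at 554, 389 and 355 CPM with guide 1, 442, 301 and 337 CPM with guide 2 and 81.7, 28.1 and 27.1 CPM after DOT1L knockout (3.13, SE 0.28, adjusted p = 1.5e-08). Its control libraries stood at 389, 333 and 329 CPM. Parm1 (4.27), the platelet integrin Itga2b (3.75), the collagen Col4a1 (3.73), Acsbg1 (3.72), Csgalnact1 (3.55) and Lypd6 (3.42) were the largest positive fold changes of the genes averaging 5 CPM or more that each guide called, followed by Kynu (3.39), Sbf2 (3.34), Platr26 (3.29) and Arfgef3 (3.14). Each of these 10 genes was under 5 CPM in every DOT1L library. Of them, Itga2b is also a member of the erythroid and megakaryocyte list described below. Among the largest negative fold changes outside the lists, Siglecg rested on 3 counts over the 6 MLLT1 libraries against 185 over the DOT1L libraries, a ratio of 157 (95% interval 53 to 770, for counting error only). Krt83 rested on 2 counts against 200, a ratio of 255 (95% interval 69.7 to 2120). Ceacam10 (-6.64), Ifitm6 (-6.88) and Ipcef1 (-6.58) followed, and Ifit1bl2 held 4 counts in all over the MLLT1 libraries against 23.04, 18.8 and 19.96 CPM.

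**Figure D3:**
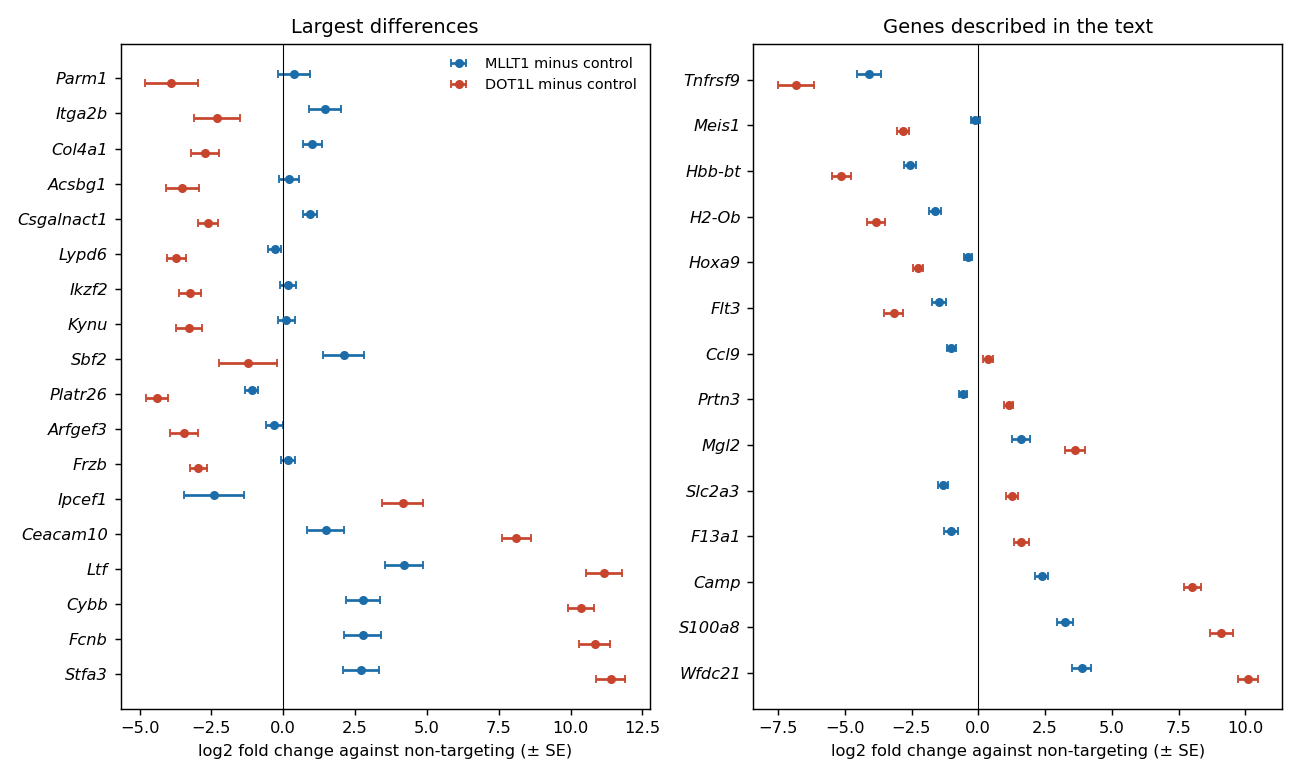
Log2 fold change (± SE) of MLLT1 knockout (blue) and DOT1L knockout (red), each against the same 3 non-targeting libraries, for the genes with the largest differences that had more than 3 counts in every group (left) and for 14 genes described in the text (right). Slc2a3, F13a1 and Prtn3 lie on opposite sides of 0, and Tnfrsf9, Hbb-bt, H2-Ob and Flt3 are below 0 for both knockouts.

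Set against the control, MLLT1 knockout gave 103 genes higher (0.974%) and 170 lower (1.61%), 2.58% of genes in all. DOT1L knockout gave 1181 (11.2%) and 1128 (10.7%), 21.8% in all. The first of these counts depends on the control libraries, with 432 calls without non-targeting replicate 1, 83 without replicate 2 and 74 without replicate 3. Both comparisons use the same control libraries, so their values are given side by side and not correlated. Tnfrsf9, a co-stimulatory receptor of the TNF receptor family, was at 988, 1652 and 927 CPM in the control, 134, 31.3 and 32.96 CPM with MLLT1 guide 1, 92.4, 90.1 and 36.4 CPM with guide 2 and 0.743, 9.60 and 18.4 CPM after DOT1L knockout. The control libraries lay above all others and the DOT1L libraries below those of MLLT1 (2.72, SE 0.57, adjusted p = 0.0011). Hbb-bt, a beta globin with a close copy, stood at 65.5, 92.9 and 73.9 CPM in the control, 10.2 to 21.2 CPM over the MLLT1 libraries and 1.49, 1.78 and 2.85 CPM after DOT1L knockout. Slc2a3, the glucose transporter GLUT3, was at 77.5, 86.6 and 94.1 CPM in the control, 35.98, 41.5 and 34.8 CPM with guide 1, 34.01, 26.7 and 34.95 CPM with guide 2 and 169, 236 and 217 CPM after DOT1L knockout. It moved in opposite directions, -1.32 after MLLT1 knockout (adjusted p = 1.3e-04) and 1.27 after DOT1L knockout (adjusted p = 9.4e-05).

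Lists of other blood lineages had few tested members, and their called members went in both directions. Dendritic cell genes were higher in 3 of 5 tested members and lower in 1, with Tcf4 at 143 to 212 CPM against 60.2, 34.8 and 26.02 CPM (2.12) and Flt3 at 28.2 to 62.5 CPM against 18.9, 9.60 and 15.1 CPM (1.70). Mast cell and basophil genes were higher in 3 of 7 and lower in 1: Gata2 (2.41), carboxypeptidase Cpa3 (3.33) and Mcpt8 (1.58) were higher and Hdc was lower (-0.82). Erythroid and megakaryocyte genes were higher in 3 of 7 and lower in 2, among them Itga2b (3.75), Tfr2 (1.000) and platelet factor Pf4 (-3.19), and the summed list took 0.0341% to 0.0392% of counts in MLLT1 libraries and 0.0317% to 0.0359% in DOT1L libraries. Of 10 eosinophil genes 2 were tested and Siglecf was lower (-1.75), of 15 B cell genes 2 were tested and Ighm was lower (-1.39), and of 20 T and NK cell genes 2 were tested and Lck was higher (1.11). Lck was not called without DOT1L replicate 2 (adjusted p = 0.07), Tfr2 without DOT1L replicate 1 or 2 (0.0879 and 0.0505), and 1 erythroid gene was lower without DOT1L replicate 1 or 3, MLLT1 guide 1 replicate 1 or 3 or guide 2 replicate 1. In the 9 libraries 7 of the B cell genes and 11 of the T and NK cell genes were listed at 0. MHC class II genes were higher in 4 of 7 members and lower in 0 (median 1.4), with H2-DMa at 1.63, H2-Ob at 2.20, H2-Oa at 1.41 and the invariant chain Cd74 at 1.40. Cd74 was not called without DOT1L replicate 1 or 3 (adjusted p = 0.105 and 0.118). The part of such cells in the results was not tested.

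Adhesion genes split by member, with 8 of 18 higher (44.4%, against 8.49% over all genes) and 4 lower (22.2%, against 11.1%). Itgb7, the beta chain of a mucosal homing integrin, was higher at 30.7 to 47.4 CPM against 4.46, 6.40 and 7.66 CPM (2.65), as was Lpxn (1.93). Itgam, the CD11b chain found on mature myeloid cells, was lower at 17.8 to 32.8 CPM against 100.3, 121 and 137 CPM (-2.19), as was the neutrophil beta chain Itgb2l (-4.01). Without DOT1L replicate 2 the count of lower members was 2.

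**Figure D4:**
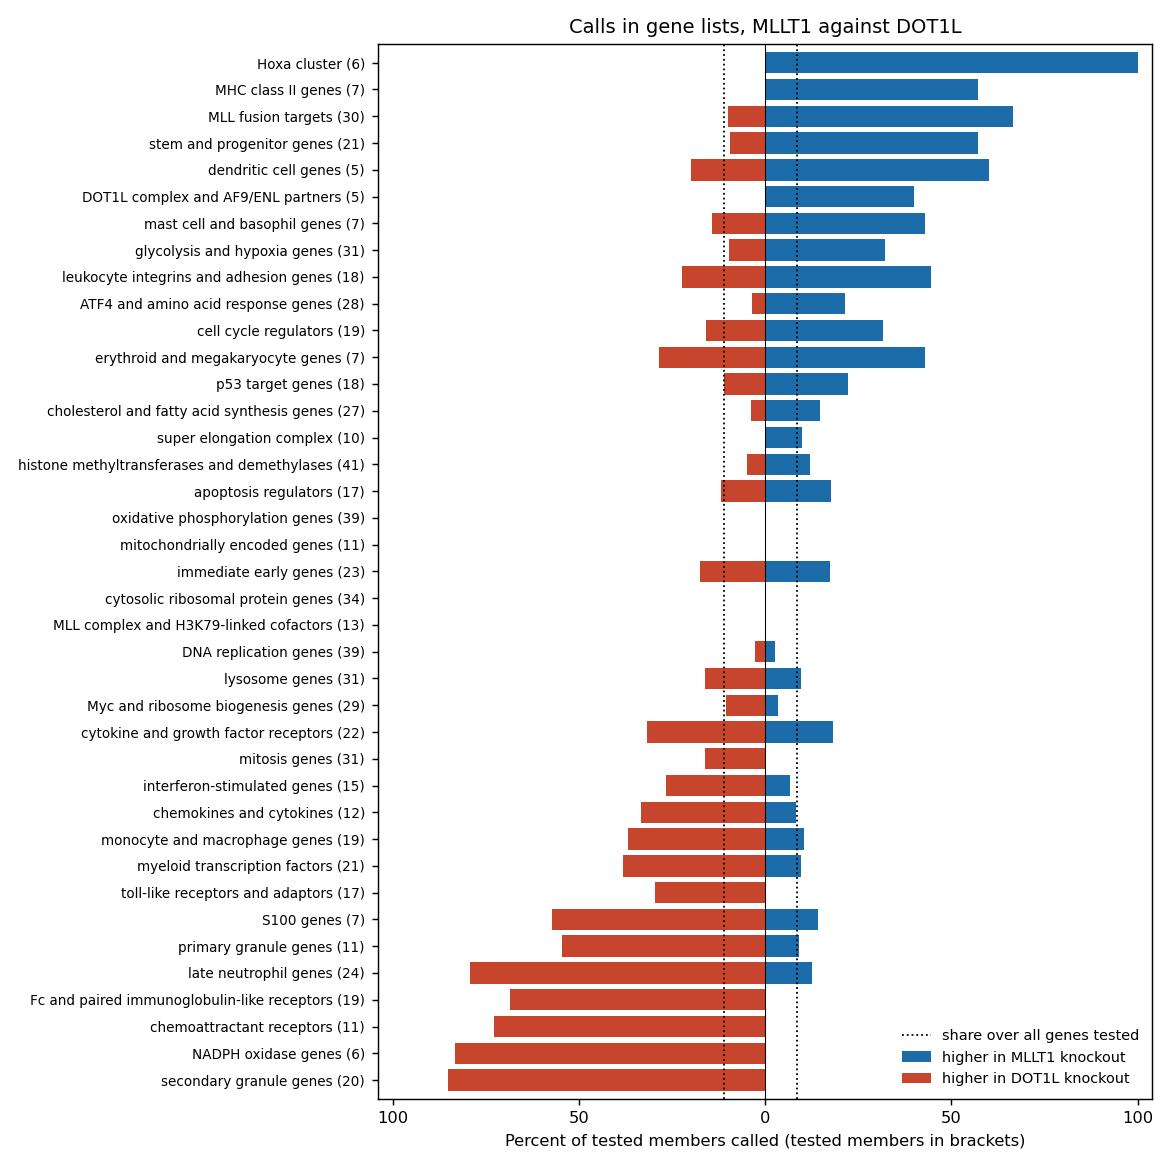
Percent of the tested members of each list called higher in MLLT1 knockout (blue, to the right) or higher in DOT1L knockout (red, to the left), for lists with at least 5 tested members, with dotted lines at the shares over all genes (8.49% and 11.1%). Secondary granule genes and Hoxa genes stand at opposite ends, with 17 of 20 and 6 of 6 called.

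Of 39 DNA replication genes 1 was higher and 1 lower (2.56% each, against 8.49% and 11.1% over all genes), namely Pold2 (0.64) and Rrm2 (-0.58). Of 31 mitosis genes 5 were lower (16.1%) and 0 higher, with Mki67 at -0.72, Kif23 at -0.59, Cenpe at -0.43 and Racgap1 at -0.38. The mitosis count was 3 without DOT1L replicate 1 or MLLT1 guide 2 replicate 1 and 2 without DOT1L replicate 3. Pold2 was not called without DOT1L replicate 2 or 3 or MLLT1 guide 2 replicate 2 (adjusted p = 0.0611 to 0.15), Kif23 without DOT1L replicate 3 or MLLT1 guide 2 replicate 1 (0.117 and 0.0518), and Cenpe without DOT1L replicate 1 or 3 or MLLT1 guide 2 replicate 2 (0.0595 to 0.0931), while 2 replication genes were lower without DOT1L replicate 3. When low counts were left unfiltered, Cenpe and Racgap1 were not called (adjusted p = 0.115 and 0.188). Of 19 cell cycle regulators 6 were higher (31.6%) and 3 lower (15.8%). The CDK inhibitor Cdkn2c had the largest fold change of them (1.98, SE 0.16, adjusted p = 2.3e-09). It stood at 133, 132 and 142 CPM with guide 1, 119, 151 and 146 CPM with guide 2 and 45.7, 30.6 and 28.7 CPM after DOT1L knockout. Ccnd2, cyclin D2, was higher by 1.01, Cdkn2a by 0.91, and E2f2 was lower, at -0.86. The count of lower regulators was 1 without DOT1L replicate 2 or 3 or MLLT1 guide 2 replicate 1, and Cdkn2a was not called without DOT1L replicate 2 (adjusted p = 0.0582).

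Metabolic and stress lists other than oxidative phosphorylation held calls in both directions, to be read against 8.49% higher and 11.1% lower over all genes. Glycolysis and hypoxia genes were higher in 10 of 31 (32.3%) and lower in 3 (9.68%), a count of 6 higher without DOT1L replicate 1. Egln3, an oxygen-sensing hydroxylase, was higher by 1.37 and the phosphofructokinase Pfkm by 1.21, while Pfkfb4 was lower, at -2.01. Of 39 oxidative phosphorylation genes 0 passed (0 at an unadjusted p under 0.05). Cholesterol and fatty acid synthesis genes were higher in 4 of 27 (14.8%) and lower in 1 (3.7%). ATF4 and amino acid response genes were higher in 6 of 28 (21.4%) and lower in 1 (3.57%), and Myc and ribosome biogenesis genes higher in 1 of 29 (3.45%) and lower in 3 (10.3%). Trib3, a pseudokinase of the stress response, was higher by 1.30, Atf3 by 2.27, and the MYC antagonist Mxd1 was lower at 28.8 to 56.99 CPM against 194, 235 and 221 CPM (-2.38). Lysosome genes were higher in 3 of 31 (9.68%) and lower in 5 (16.1%), near the shares over all genes, with the sialidase Neu1 at -1.15 and Glb1 at 0.93. Interferon-stimulated genes were higher in 1 of 15 (6.67%) and lower in 4 (26.7%). Immediate early genes were higher in 4 of 23 and lower in 4 (17.4% each), p53 target genes higher in 4 of 18 (22.2%) and lower in 2 (11.1%), and apoptosis regulators higher in 3 of 17 (17.6%) and lower in 2 (11.8%). Of the immediate early genes Klf6 was lower, at -2.43, while Atf3 is a higher member. Of the p53 targets Trp53inp1 was lower, at -3.46, and Zmat3 and Cdkn1a were higher, by 1.245 and 1.515. Cdkn1a was not called without DOT1L replicate 1 (adjusted p = 0.0638). Of the apoptosis regulators the death-promoting Bcl2l11 was lower, at -0.74, and Bcl2 higher, by 2.01. Many of these small counts moved with single libraries. The cholesterol list had 2 higher without DOT1L replicate 1 or 3, the Myc list 1 lower without DOT1L replicate 2 or 3 or MLLT1 guide 2 replicate 2, and apoptosis regulators 1 higher without DOT1L replicate 2. Lysosome genes had 5 higher without MLLT1 guide 1 replicate 3 and 2 or 3 lower without every library but MLLT1 guide 1 replicate 2 and guide 2 replicate 2. The p53 list had 1 higher without DOT1L replicate 1 and 2 without DOT1L replicate 2 or 3, MLLT1 guide 1 replicate 2 or guide 2 replicate 1, and 1 lower without all but MLLT1 guide 1 replicate 3 and guide 2 replicate 1. The single lower ATF4 gene was lost without every library but MLLT1 guide 1 replicates 2 and 3, the single higher Myc-list gene without DOT1L replicate 2 or 3, and the single higher interferon gene without DOT1L replicate 2 or 3, MLLT1 guide 1 replicate 1 or guide 2 replicate 1 or 3.

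Of the 5 genes of the DOT1L complex and its AF9 and ENL partners 2 were higher in MLLT1 knockout, Dot1l itself and Mllt6 (0.62, SE 0.20, adjusted p = 0.027), and the call of Mllt6 was lost without DOT1L replicate 3 (adjusted p = 0.217) and when low counts were left unfiltered (0.0632). Mllt10 (0.15, adjusted p = 0.71) and Mllt3 (-0.17, adjusted p = 0.74) did not pass. Of 10 super elongation complex genes 1 was higher (10%, near the 8.49% over all genes). This was Ell2, at 108 to 141 CPM against 57.96, 70.4 and 63.4 CPM (0.96, adjusted p = 1.4e-04). Of 13 MLL complex and cofactor genes 0 passed at an adjusted p under 0.05, and 1 at an unadjusted p under 0.05. Histone methyltransferases and demethylases were higher in 5 of 41 (12.2%) and lower in 2 (4.88%), with Kdm7a lower at -1.65 and Kmt5a at -0.70. The higher members include Dot1l, the gene targeted in the DOT1L libraries. That count of higher members was 2 without DOT1L replicate 2 or 3 and 3 without MLLT1 guide 1 replicate 3 or guide 2 replicate 2.

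The promoters of the genes that differed most were read from RefSeq (GRCm38.p6, 250 bases before to 50 after the start, 300 bases in all), since granule genes and developmental genes are known to differ in CpG content. Of the tested genes 8070 matched a promoter by symbol, with a median of 22 CG dinucleotides. Only the first start listed for a symbol was used. The 168 matched genes at least 4-fold lower in MLLT1 knockout had a median of 5, and the 98 at least 4-fold higher had a median of 17. The stretches from 150 bases before the start to the last base before it are shown for 4 genes of each kind, picked after their values were seen, with each CG in capitals.
S100a9 (GRCm38.p6, chr3:90695722-90695871, minus strand): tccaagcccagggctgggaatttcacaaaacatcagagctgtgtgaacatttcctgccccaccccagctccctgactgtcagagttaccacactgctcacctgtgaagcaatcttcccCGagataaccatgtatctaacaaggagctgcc
Cybb (GRCm38.p6, chrX:9469325-9469474, minus strand): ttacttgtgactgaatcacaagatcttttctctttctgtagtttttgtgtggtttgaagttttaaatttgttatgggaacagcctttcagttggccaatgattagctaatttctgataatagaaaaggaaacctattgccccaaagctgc
Chil3 (GRCm38.p6, chr3:106167565-106167714, minus strand): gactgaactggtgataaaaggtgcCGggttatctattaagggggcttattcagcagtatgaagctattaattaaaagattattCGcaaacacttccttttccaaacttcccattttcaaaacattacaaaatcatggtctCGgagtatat
Stfa3 (GRCm38.p6, chr16:36455393-36455542, minus strand): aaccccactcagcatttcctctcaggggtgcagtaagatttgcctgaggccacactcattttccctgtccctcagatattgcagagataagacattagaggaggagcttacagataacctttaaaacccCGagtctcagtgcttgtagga
Hoxa5 (GRCm38.p6, chr6:52204588-52204737, minus strand): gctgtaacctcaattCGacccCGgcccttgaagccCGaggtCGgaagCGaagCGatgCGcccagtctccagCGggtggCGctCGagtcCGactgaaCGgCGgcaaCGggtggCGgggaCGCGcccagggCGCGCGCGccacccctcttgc
Hoxa9 (GRCm38.p6, chr6:52227371-52227520, minus strand): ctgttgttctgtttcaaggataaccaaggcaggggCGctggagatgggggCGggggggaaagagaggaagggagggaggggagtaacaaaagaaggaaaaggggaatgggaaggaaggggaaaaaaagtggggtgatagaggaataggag
Hoxa10 (GRCm38.p6, chr6:52240855-52241004, minus strand): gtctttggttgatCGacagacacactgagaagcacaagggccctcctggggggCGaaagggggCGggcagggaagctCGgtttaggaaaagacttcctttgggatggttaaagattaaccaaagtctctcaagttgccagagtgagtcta
Meis1 (GRCm38.p6, chr11:19018970-19019119, minus strand): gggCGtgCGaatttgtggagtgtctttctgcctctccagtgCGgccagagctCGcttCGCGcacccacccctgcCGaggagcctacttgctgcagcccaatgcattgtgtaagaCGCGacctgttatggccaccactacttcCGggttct

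The 300-base promoters of S100a9, Cybb, Chil3 and Stfa3, all lower in MLLT1 knockout, held 2, 1, 3 and 3 CG. Those of Hoxa5, Hoxa9, Hoxa10 and Meis1, all higher, held 29, 4, 12 and 15, so Hoxa9 held fewer than the 3 others of its kind and more than each of the first 4 genes. The starts used for Cybb and Hoxa9 lie inside the gene spans of the annotation that gave the symbols, so their counts hold for those starts alone. Among the 680 tested genes with at most 5 CG, 26.6% were lower in MLLT1 knockout and 12.1% higher, against 8.9% lower and 7.5% higher among the 2608 genes with 21 to 30 CG. With genes of at least 10 CPM alone, the shares were 31.3% and 14% of 406 genes against 9.3% and 7.5% of 2125. The shares did not fall steadily, since genes with 31 or more CG stood at 10.6% lower and 9.8% higher. At 10 CPM or more these were 11.2% and 9.7%. The order of the shares was the same at both levels, and no test was made over genes, which are not replicates.

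**Figure D5:**
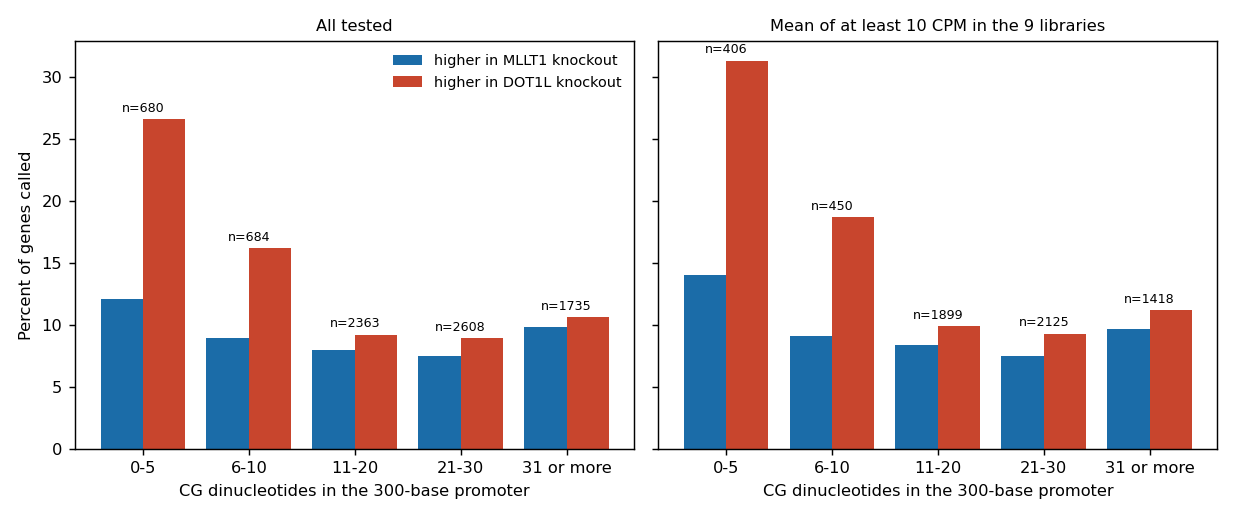
Percent of genes called higher in MLLT1 knockout (blue) or higher in DOT1L knockout (red) by the number of CG dinucleotides in the 300-base promoter, for all tested genes with a promoter (left) and for those with a mean of at least 10 CPM over the 9 libraries (right). The red bars fall from 26.6% at 0 to 5 CG to 8.9% at 21 to 30 CG on the left, and stand at 10.6% at 31 or more.

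Letter motifs were searched in the same promoters on both strands, with overlaps between motifs allowed. The C/EBP-like motif TTNNGCAA was in 18.5% of the promoters at least 4-fold lower, 7.1% of those at least 4-fold higher and 8.3% of all tested. The ETS-like motif AGGAAGT was in 23.8%, 7.1% and 9.7% in the same order, and TATAAA in 15.5%, 13.3% and 6.5%. TGACAG (MEIS-like) was in 22.6%, 20.4% and 16.7%, and TGATTNAT (HOX-PBX-like) in 0.6%, 2% and 1.2%. A match describes the letters alone, and the sets were not matched for expression level or base composition.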

How the data were processed

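The authors deposited raw read counts of 24 libraries for 43629 Ensembl genes. The tools bcl2fastq, HISAT2, HTSeq and DESeq2 and the build mm10 are named per the submitters' processing notes. No source used here gives versions, annotation or strand setting, so overlapping and antisense genes cannot be told apart. Symbols came from GENCODE M21 (42548 identifiers matched). Replicate pairs differed by chi-squares of 4.765 to 34.31 per gene, above sampling noise, so all counted.

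Counts were tested with edgeR 4.0.16 in R 4.3.3 (TMM, filter on low counts, 1 quasi-likelihood fit of 8 groups because cells, day and protocol were shared). The contrast was the mean of both MLLT1 guides minus DOT1L, called at an adjusted p under 0.05. The SE, the size of the log2 fold change divided by the root of the F statistic, is approximate. Count ratios and bounds (floor of 3 counts over a group, exact 95% intervals) cover counting error only, since reads carry no stated molecular identifiers. The fit was tested on simulated data: 37 of 50 genes changed 2-fold and 47 of 50 changed 4-fold were called, with 2 of 10216 unchanged genes. The changed genes were drawn from those averaging over 5 CPM, and the counts followed the kind of model that was then fitted. Recovery for genes of lower level was therefore not examined.

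The libraries and 42 gene lists (925 genes, 4 unmatched, some in several lists) were chosen with earlier results of these data known. Named were the 5 DOT1L-complex genes, the 12 largest fold changes per direction among genes of at least 5 CPM called with each guide, the 4 largest of at least 100 CPM, and the 4 members of each list (or fewer) with the lowest adjusted p. Further genes were named after their values were seen: Cd177, Cebpa, Cebpe, Clec4d, Cpeb2, Csf1r, Csf3r, Ctsg, Cyba, Eya1, Gfi1, Hoxa2, Hoxa7, Kit, Lcn2, Mef2c, Mmp9, Myb, Myc, Ngp, Osm, Retnlg, Spi1, Tnfrsf9 and Wfdc17. Some genes that the rule names are not reported here. Alternatives were a block for the replicate number, no filter, the compared groups alone, DESeq2 1.42.0 as test or for scaling alone, and each library left out. Python 3.11.15 (pandas 2.3.3, with scipy 1.17.1 for exact tests) made the tables and matplotlib 3.10.9 the figures.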

Additional observations from a re-analysis of the deposited data

Results flagged for a closer look

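In 152 groups of 6 MLLT1 libraries examined (1 per measure), 15 had a highest or lowest library that stood far from the other 5 by Dixon's 95% criterion, and chance gives about 1 in 20. MLLT1 guide 1 replicate 1 was lowest for Irak3 at 21.9 CPM (others 53.3 to 60.4), for Kmt5a at 93.8 CPM (171 to 201) and for Stfa2 at 10.1 CPM (13.5 to 15.6), and highest for Ipcef1 at 2.35 CPM (0 to 0.417) and Hbb-bt at 21.2 CPM (10.2 to 14.2). Replicate 2 of that guide was highest for H2-Ob at 33.2 CPM (21.4 to 24.5) and Pfkm at 27.5 CPM (21.7 to 23.5), and replicate 3 for Trp53inp1 at 2.16 CPM (0.336 to 0.834). MLLT1 guide 2 replicate 1 was highest for Kynu at 20.5 CPM (11.9 to 14.6) and Chil3 at 4.21 CPM (0 to 1.24) and lowest for Pfkfb4 at 9.93 CPM (16.3 to 18.8). Replicate 2 of guide 2 was lowest for Lyz2 at 64.9 CPM (90.2 to 99.5) and highest for Cdkn2a at 169 CPM (98.4 to 124) and Jmjd1c at 102 CPM (65.3 to 75.6), and replicate 3 was lowest for Clec4a2 at 10.2 CPM (15.5 to 17.4). For each of these 15 genes the MLLT1 libraries still did not overlap with the DOT1L libraries.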

How the results depend on the processing

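The count of genes between MLLT1 and DOT1L knockout stayed within 1.5 times of 2074 under no filter and both DESeq2 alternatives. It did so with the compared groups alone as well, at 1860 of 10117 genes. With a library left out it ran from 1456 to 2101. Genes higher alone ran from 570 (without DOT1L replicate 3) to 931, and lower alone from 886 to 1190. Guide 1 ran from 1170 to 1483 calls and guide 2 from 1155 to 1351. Between the guides 21 genes were called with no filter and 0 to 0 with a library left out. MLLT1 knockout against the control moved most, with 463 calls with no filter, 97 with the compared groups alone and 74 to 432 with a library left out, while DOT1L knockout against the control ran from 1750 to 2336. The labels give a shared replicate number, and the sample numbers (S) in the column names run in order of replicate over all groups. Neither says what same-numbered libraries shared. Correlations of same-numbered deviations were not all over 0.1 between DOT1L and the MLLT1 guides (-0.133 to 0.207), so the main fit assumed no pairing. As a hint from the data, 6 and 2 of 6 libraries correlated best with their own number for guides 1 and 2, and MLLT1 guide 2 and the control had correlations of 0.119 to 0.467 (guide 1 and the control -0.017 to 0.421). With the replicate block the main comparison gave 1026 genes higher and 1290 lower, and MLLT1 against the control 457. Differences in share of counts (percentage points, MLLT1 minus DOT1L) ran from -0.527 to -0.449 for primary granule, -2.94 to -2.69 for secondary granule, -2.4 to -2.23 for late neutrophil, -6.56 to -6.27 for S100 and 0.804 to 0.894 for ribosomal protein genes with a library left out. Without a DOT1L library the exact permutation test has 28 splits and cannot go below p = 0.0714 (adjusted 0.0857 for these 5), so it says nothing about stability. The mitochondrial share ran from -0.149 to 0.0208 and turned sign without DOT1L replicate 1 (0.0208). Of 146 named genes 125 kept their side of the threshold under each alternative, and 0 reversed. In data simulated at these depths 37 of 50 genes changed 2-fold and 9 of 50 changed 1.5-fold were called, so smaller differences can be missed. The changed genes there were drawn from those averaging over 5 CPM.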
